A study of Mus musculus with 8 samples.

Results

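The genes of the epidermal growth factor (EGF), neuregulin and ERBB receptor family were examined in H3K27Ac ChIP-Seq of mouse ventricles at postnatal day 7 (P7). The family was taken as 9 genes, namely the receptors *Egfr*, *Erbb2*, *Erbb3* and *Erbb4* and the ligands *Nrg1*, *Areg*, *Btc*, *Hbegf* and *Ereg*. A peak, that is, a region with H3K27Ac signal in at least 2 samples, was assigned to the gene whose curated RefSeq transcription start lay closest to its centre. This gave 31 of the 45980 peaks on placed chromosomes, spread over 8 of the 9 genes, and 0 peaks for *Erbb3*. Controls were *Arid1a* f/f littermates, in which both *Arid1a* alleles are floxed but no Cre is present. *Arid1a cKO* mutants were aMHC-Cre;*Arid1a* f/f mice, in which the α-myosin heavy chain promoter drives Cre in cardiomyocytes. There were 2 H3K27Ac libraries per group, each with an input library. All 8 libraries were made from whole ventricles, so non-cardiomyocyte cells, which keep *Arid1a*, contribute to both groups.

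Levels are given as the authors' mean of normalised reads per peak in a group. Differences are log2 values, *Arid1a cKO* minus control. Beside these group means the deposited table holds 0 columns of single samples, so no SD could be computed, no difference was tested here, and the depth per library is unknown. Statistics of the authors' own comparison, which the table also holds, were not used. Peaks were counted as lower or higher where the group means were at least 2-fold apart. Because weak peaks scatter more than strong ones, all peaks were divided by overall level into 10 classes of equal size, and each member peak was placed in its level class by the share of peaks at least as far apart in the same direction.

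ERBB receptors are membrane tyrosine kinases that pair on ligand binding and signal through the RAS/MAPK and PI3K/AKT cascades. In the heart, neuregulin 1 released by endocardial and endothelial cells acts on ERBB4 and ERBB2 in cardiomyocytes, a circuit needed for trabeculation and used in postnatal cardiomyocyte growth. EGFR is bound by amphiregulin, betacellulin, HB-EGF and epiregulin, and betacellulin, HB-EGF and epiregulin also bind ERBB4. H3K27Ac is a histone mark of active promoters and enhancers.

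Of the 31 peaks, 4 were at least 2-fold lower in *Arid1a cKO* hearts, which is 12.9% beside 10.6% of all peaks. Another 3 were at least 2-fold higher, which is 9.68% beside 4.57% of all peaks. The 4 lower peaks belonged to *Erbb4* and *Nrg1*, and the 3 higher peaks to *Areg*, *Btc* and *Egfr*. Apart from *Erbb4* and *Nrg1*, 21 of the other 23 peaks lay above 0, with a median difference of 0.37. The 8 peaks of *Erbb4* and *Nrg1* had a median of −1.21, and 7 of them lay below 0. This grouping of *Erbb4* with *Nrg1* was made after their values were seen. Over the whole family the median was 0.33, compared to 0.01 over all peaks, and 22 peaks lay above 0 and 9 below. Of all 45980 peaks, 23277 lay above 0 and 22225 below. In bulk tissue, fewer cells of a type and less H3K27Ac per cell cannot be told apart.

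**Figure D1:**
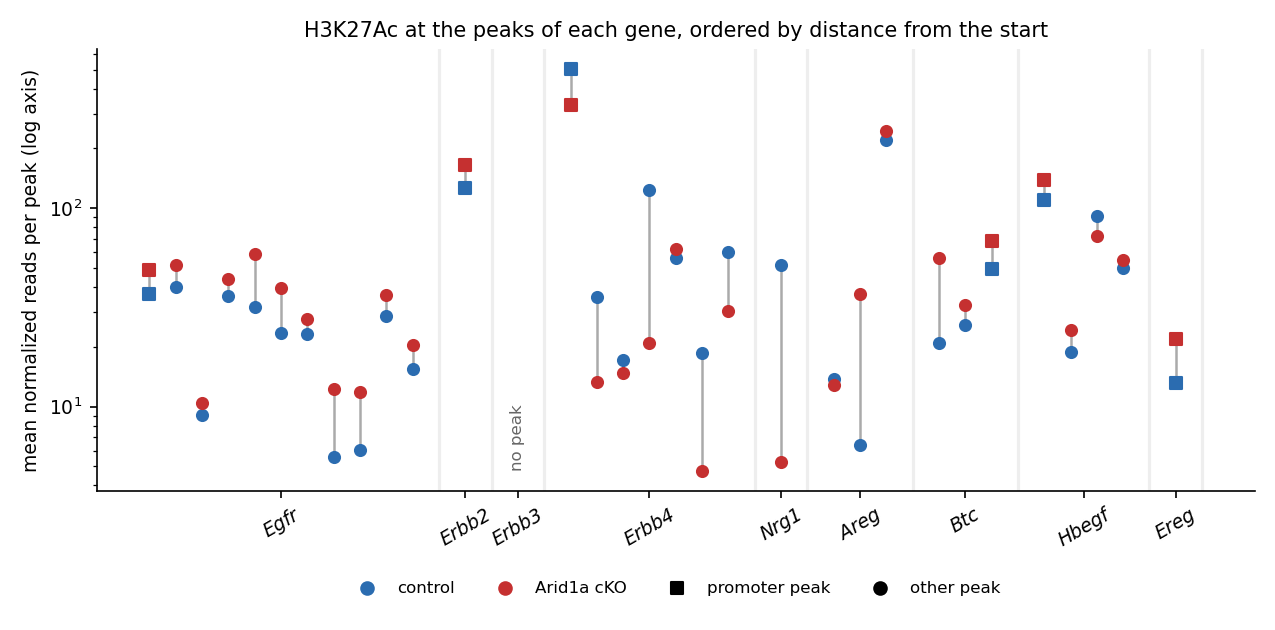
H3K27Ac levels of all 31 peaks by gene, as the authors' mean of normalised reads per peak on a log axis in control and *Arid1a cKO* hearts, with squares for promoter peaks. The *Erbb4* peak at 124 reads and the *Nrg1* peak at 51.6 reads in controls sit at 20.8 and 5.24 in *Arid1a cKO* hearts, while all 11 *Egfr* peaks sit higher in the mutant.

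The central 300 bases are printed here for 4 of the member peaks at least 2-fold apart with an overall mean of at least 20 normalised reads, in *Erbb4*, *Nrg1* and *Areg*, since these regions carry large differences. They are shown on the plus strand of GRCm38 (mm10), and capitals mark matches, on either strand, to the motifs described further on. The windows lie at chr1:68973740-68974039 and chr1:69086034-69086333 in the first intron of *Erbb4*, at chr8:32044486-32044785 upstream of the curated starts of *Nrg1*, and at chr5:91123458-91123757 upstream of *Areg*. The windows touch 0 annotated exons.
Erbb4, peak 134 kb downstream of the start, lower: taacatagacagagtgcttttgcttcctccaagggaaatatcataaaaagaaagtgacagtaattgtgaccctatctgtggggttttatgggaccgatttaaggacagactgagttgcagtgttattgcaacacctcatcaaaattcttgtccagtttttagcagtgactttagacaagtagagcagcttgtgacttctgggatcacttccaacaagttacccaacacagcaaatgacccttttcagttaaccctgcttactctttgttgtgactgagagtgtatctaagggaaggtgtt
Erbb4, peak 21.9 kb downstream of the start, lower: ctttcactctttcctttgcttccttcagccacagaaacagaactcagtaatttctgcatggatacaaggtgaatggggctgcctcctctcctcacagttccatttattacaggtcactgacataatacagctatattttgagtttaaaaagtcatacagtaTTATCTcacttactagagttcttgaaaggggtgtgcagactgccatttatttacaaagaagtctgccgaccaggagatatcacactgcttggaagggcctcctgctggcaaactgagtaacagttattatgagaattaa
Nrg1, peak 35.1 kb upstream of the start, lower: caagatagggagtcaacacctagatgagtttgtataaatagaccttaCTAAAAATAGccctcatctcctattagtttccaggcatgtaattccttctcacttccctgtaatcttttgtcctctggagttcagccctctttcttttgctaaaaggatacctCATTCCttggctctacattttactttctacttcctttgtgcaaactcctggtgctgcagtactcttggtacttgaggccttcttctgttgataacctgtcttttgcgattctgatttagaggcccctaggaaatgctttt
Areg, peak 16.0 kb upstream of the start, higher: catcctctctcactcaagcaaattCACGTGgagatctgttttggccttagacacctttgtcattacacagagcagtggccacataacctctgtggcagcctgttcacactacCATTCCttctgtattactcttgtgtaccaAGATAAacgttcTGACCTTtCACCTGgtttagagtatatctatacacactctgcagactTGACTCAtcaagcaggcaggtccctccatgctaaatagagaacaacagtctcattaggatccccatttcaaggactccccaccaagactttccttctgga

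*Erbb4*, a receptor that binds neuregulins directly, showed lower H3K27Ac in *Arid1a cKO* hearts at 6 of its 7 peaks, 3 of them at least 2-fold. The gene spans 1076 kb of chromosome 1 on the minus strand (68032186 to 69108059), and all of its peaks were centred in introns, 5 in intron 1 and 1 each in introns 2 and 3. Its promoter peak (69104259 to 69108561), the strongest of the gene, had 501 reads in controls and 331 in mutants. That difference of −0.60 was under 2-fold, yet 4.61% of peaks in its level class were at least as far down. Summed over the 7 peaks, the signal was 813 reads in controls and 477 in mutants, a difference of −0.77.

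The peak in intron 1 of *Erbb4* at 134 kb from the start (68973033 to 68974746) had 124 reads in controls and 20.8 in mutants, a difference of −2.57 and thus 5.94-fold. Only 1.17% of peaks in its level class were at least as far down. The peak at 21.9 kb, also in intron 1 (69085682 to 69086685), had 35.8 reads in controls and 13.3 in mutants, a difference of −1.43 that 9.61% of its level class reached. In intron 2, the peak at 401 kb (68706512 to 68707431) had 18.6 and 4.76 reads, a difference of −1.97 with a share of 6.94%. The pattern was not uniform along the gene. At 327 kb in intron 1, 56.1 reads in controls stood beside 62.2 in mutants, a difference of 0.15. A further intron 1 peak at 83.0 kb had 17.1 and 14.7 reads, a difference of −0.22. The peak in intron 3 at 604 kb had 60.1 reads in controls and 30.5 in mutants, and its difference of −0.98 fell just short of the 2-fold limit. Among all 333 genes with 7 peaks, a count made after the values were seen, 39 (11.7%) had at least 3 peaks 2-fold lower and 61 (18.3%) had at least 6 peaks below 0.

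*Egfr*, the receptor of EGF and its relatives, had 11 peaks, all of them higher in *Arid1a cKO* hearts. The gene lies on chromosome 11 (16752203 to 16913907, plus strand), and every peak was centred in its intron 1, the last at 97.1 kb from the start. The differences ran from 0.20 to 1.15 with a median of 0.40, and the summed signal was 256 reads in controls and 362 in mutants, a difference of 0.50. The 11 peaks rest on curated starts, since with starts of any RefSeq transcript *Egfr* keeps 1 peak. When peaks were given to both flanking genes, *Egfr* gained 4, of which 3 lay below 0, at −0.14, −1.66 and −0.65, and 1 above, at 0.70. Most of the differences within the 11 peaks were common among peaks of like level, with shares of up to 45.2%. The promoter peak (16751684 to 16753541) had 36.8 and 48.8 reads, a difference of 0.41 that 23.0% of its level class reached. The strongest peak, at 41.7 kb, had 39.9 reads in controls and 51.6 in mutants, a difference of 0.37. At 64.7 kb (16815581 to 16818197), 31.8 reads in controls stood beside 58.9 in mutants, and only 2.50% of peaks in its level class were at least as far up as 0.89. The 1 peak past 2-fold, at 71.5 kb (16823231 to 16824083), was weak, with 5.54 and 12.3 reads. Its difference of 1.15 was reached by 13.4% of its level class. The peak at 80.0 kb had 6.02 and 11.9 reads, and its difference of 0.98 also fell just short of the limit. Of the 37 peaks of fibroblast marker genes 34 lay above 0 and 3 below, with a median of 0.38. The part of fibroblasts in the difference of *Egfr* was not tested. Of the 345 genes with 10 to 12 peaks, likewise counted after the values were seen, 8 (2.32%) had every peak above 0.

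**Figure D2:**
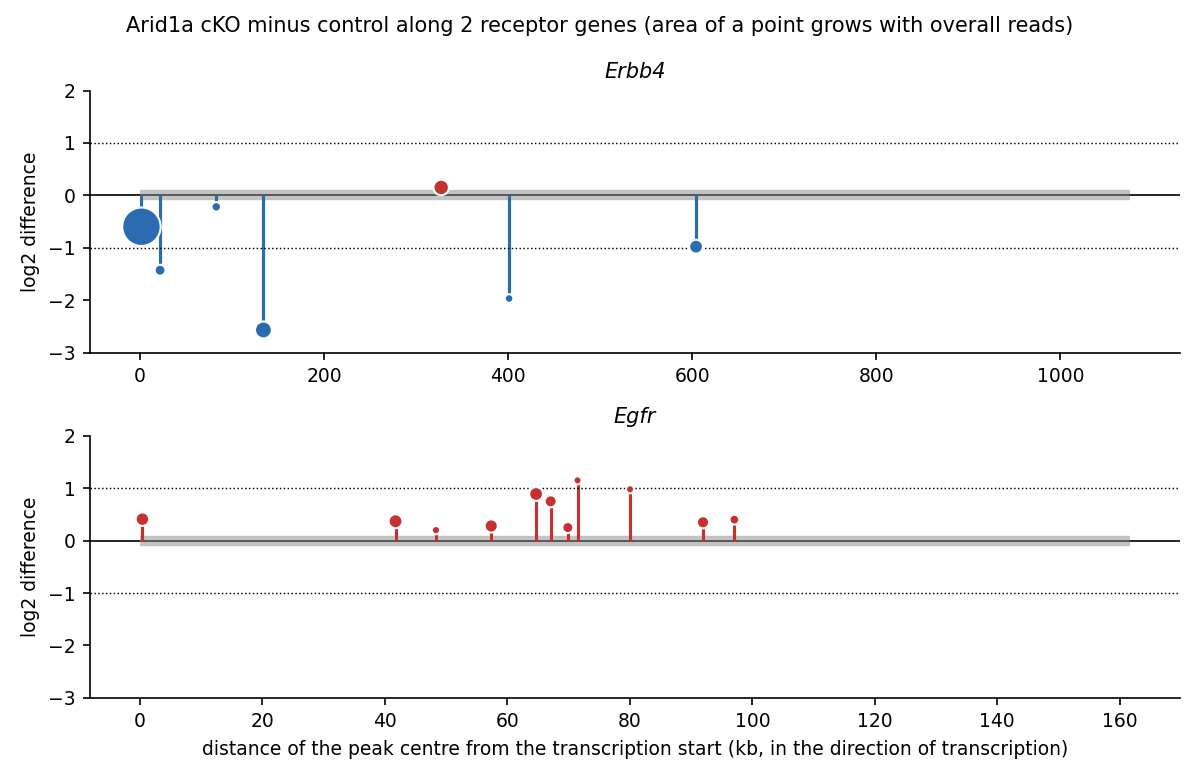
Differences in H3K27Ac (log2, *Arid1a cKO* minus control) along *Erbb4* and *Egfr*, against the distance of each peak centre from the transcription start in kb. Negative values run along *Erbb4*, with the lowest at −2.57 and 1 peak above 0, while the 11 *Egfr* peaks lie between 0.20 and 1.15.

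*Erbb2* encodes the receptor without a ligand of its own, which pairs with the other members. It had a single peak, over its start (chromosome 11, 98411607 to 98413374), with 126 reads in controls and 165 in mutants. The difference of 0.39 was reached by 9.22% of peaks in its level class.

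*Erbb3*, which binds neuregulins but has little kinase activity, lies on chromosome 10 (128567523 to 128589635) and had no peak nearest to its start. A peak inside the gene (128582550 to 128584569) was closer to the start of the microRNA gene *Mir6917*. It had 83.3 reads in controls and 105 in mutants, a difference of 0.33, and becomes an *Erbb3* peak if only starts of protein-coding transcripts are used.

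*Nrg1*, the neuregulin that signals from endocardium and vessels to cardiomyocytes, had the largest difference of the family. Its only peak (chromosome 8, 32043929 to 32045341) had 51.6 reads in controls and 5.24 in mutants. The difference of −3.30, or 9.85-fold, was reached by 1.67% of peaks in its level class. The peak lies 35.1 kb upstream of the most distal of the 3 curated *Nrg1* starts, outside the curated gene (31814551 to 32009504), but in an intron of longer predicted *Nrg1* transcripts. None of these starts had a promoter peak. For comparison, 413 of the 7270 genes with 1 peak (5.68%) had it 2-fold lower, promoter peaks included. Of all non-promoter peaks, 13.8% were 2-fold lower. With starts of any RefSeq transcript, predicted ones included, *Nrg1* has 0 peaks, so the assignment of this peak to *Nrg1* depends on the curated starts. With protein-coding starts only, *Nrg1* gains a peak at 167 kb upstream (32176231 to 32177158), with 18.1 reads in controls and 11.9 in mutants, a difference of −0.61.

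Among the ligands of EGFR, *Areg*, *Btc* and *Ereg* lie near each other on chromosome 5. *Areg* encodes amphiregulin (91139599 to 91148432) and had 3 peaks, none of them at its promoter. The peak at 16.0 kb upstream (91122574 to 91124641) had 6.41 reads in controls and 37.0 in mutants. This difference of 2.53, or 5.78-fold, was the largest above 0 in the family, and 0.217% of peaks in its level class were at least as far up. *Ereg* was the second nearest gene, 49.0 kb from its centre, so the assignment to *Areg* rests on distance alone. The neighbouring peak at 20.6 kb upstream, in contrast, had 13.8 and 12.8 reads, a difference of −0.11. The broadest peak, 9164 bp wide and 63.7 kb downstream (91198713 to 91207876), had 221 reads in controls and 246 in mutants, a difference of 0.15.

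*Btc*, which encodes betacellulin (91357261 to 91402994, minus strand), had 3 peaks, all above 0. With starts of any RefSeq transcript it keeps 2 of them. The peak 33.7 kb upstream had 21.0 reads in controls and 56.1 in mutants. The difference was 1.42, or 2.68-fold, and 0.739% of its level class were at least as far up. The promoter peak (91402319 to 91403483) had 49.2 and 68.1 reads, a difference of 0.47 that 15.1% of its level class reached. The remaining peak, 11.3 kb upstream, had 25.6 and 32.7 reads, a difference of 0.35. Summed over the gene, 95.8 reads in controls stood beside 157 in mutants, a difference of 0.71.

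*Ereg* (epiregulin; 91074617 to 91093649) had 1 weak peak, at its promoter (91073712 to 91074915), with 13.1 reads in controls and 21.9 in mutants. Its difference of 0.74 was reached by 14.3% of its level class. *Hbegf* (heparin-binding EGF-like growth factor; chromosome 18, 36504927 to 36515805) had 4 peaks, none of them 2-fold apart. Its promoter peak (36514246 to 36517440) had 110 and 138 reads, a difference of 0.33. The intron 3 peak at 7.52 kb had 91.1 reads in controls and 72.0 in mutants, a difference of −0.34 and thus against the promoter. The other two had differences of 0.36 and 0.14, and the summed signal was 270 reads in controls and 289 in mutants.

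**Figure D3:**
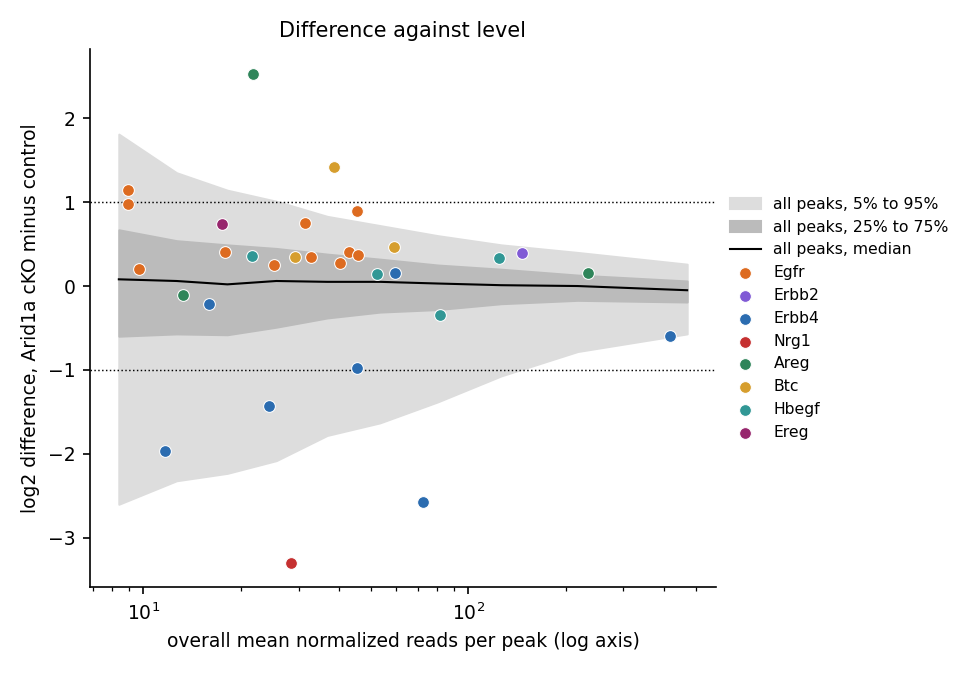
Difference (log2, *Arid1a cKO* minus control) of each member peak against its overall mean in normalised reads (log axis), over bands that show the spread of all peaks in each of the 10 level classes. The outer band leaves out the lowest and the highest 5% of peaks. Above it lie the *Areg* peak at 2.53, the *Btc* peak at 1.42 and the *Egfr* peak at 0.89. Below it lie the *Nrg1* peak at −3.30 and the *Erbb4* peak at −2.57, and the *Erbb4* promoter peak at −0.60 is near its lower edge.

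Compared per kb of peak width, the promoter peaks of the family were ordered differently in the groups. *Erbb4* led in controls with 117 reads per kb, followed by *Erbb2* with 71.4. In *Arid1a cKO* hearts *Erbb2* led with 93.6 reads per kb, and *Erbb4* followed with 76.9. Below them the order was the same in both groups. *Btc* had 42.2 reads per kb in controls and 58.5 in mutants. For *Hbegf* the levels were 34.4 and 43.2, for *Egfr* 19.8 and 26.3, and for *Ereg* 10.9 and 18.2. Without values of single samples it cannot be said which neighbours in this order differ beyond the replicate spread.

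The family had only 6 promoter peaks, and all member peaks past 2-fold were among the other 25. The 6 promoter peaks of the family ranged from −0.60 to 0.74, so 0 were 2-fold lower and 0 higher, while over all genes 1.76% of promoter peaks were lower and 1.2% higher. At such low shares, 0 of 6 says little about the family. Of the 25 other member peaks, 4 were lower (16%) and 3 higher (12%), compared to 13.8% and 5.78% of all non-promoter peaks. The share of lower peaks is thus near that of all such peaks. By position, 20 member peaks were centred in introns, 9 between genes and 2 in exons. The 4 lower and 3 higher peaks comprised 4 intronic peaks, in *Erbb4* and *Egfr*, and the intergenic peaks of *Nrg1*, *Areg* and *Btc*. These positions follow curated transcripts. With predicted ones included, the *Nrg1* peak lies in an *Nrg1* intron and the *Btc* peak in an intron of *Gm42110*. The promoter windows of RefSeq (GRCm38.p6; 300 bases around the start), matched for 5 members, held 21 CpG dinucleotides in *Areg* and in *Erbb2*, 17 in *Erbb4*, 15 in *Egfr* and 5 in *Btc*, with a median of 7 over 32851 promoters.

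The sequence around the peak centres was then searched, in windows of 300 bases and on both strands, for 7 short motifs of transcription factors. The TEAD core CATTCC was present in 11 of 31 member peaks (35.5%), compared to 16.7% of all peaks. Among the lower peaks, that of *Nrg1* held it and the 3 of *Erbb4* did not, while all 3 higher peaks held it. The MEF2 core was found in 2 member peaks (6.45%, 1.63% of all peaks), the *Nrg1* peak and the *Erbb4* peak at 604 kb. The estrogen-related receptor motif AAGGTCA was found in 1 member peak, the higher *Areg* peak, and in 7.05% of all peaks. The ZEB and SNAI E-box CAGGTG was found in 3 member peaks (9.68%, 17.7% of all peaks), and the GATA motif AGATAA in 5 (16.1%, 13.4%). The AP-1 motif TGANTCA was found in 2 member peaks (6.45%, 8.98%) and the E-box CACGTG in 4 (12.9%, 4.88%). Over whole member peaks, matches per kb were 0.726 for TEAD and 0.066 for MEF2, compared to 1.51 and 0.215 in the central windows, while the ZEB and SNAI E-box had 0.759 over whole peaks and 0.323 in the windows. The whole-peak density over all peaks was not computed. These 7 motifs differ in sequence and none contains another. The printed *Areg* window holds 6 of the 7, one match each, and lacks MEF2. The *Nrg1* window holds TEAD and MEF2 matches. The *Erbb4* window at 134 kb has 0 matches, and the one at 21.9 kb has a GATA match. A match describes the letters of the window and was not tested as a binding site.

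Beyond the family, 61 genes of the pathway were followed in 6 lists, and 57 of them had peaks. Of their 285 peaks, 25 (8.77%) were at least 2-fold lower and 19 (6.67%) higher, beside 10.6% and 4.57% of all peaks, and the median difference was 0.09. The remaining EGF-type ligands (*Egf*, *Tgfa*, *Epgn*, *Nrg2*, *Nrg3* and *Nrg4*) had 4 peaks in 2 genes, with 2 lower and 0 higher. The *Egf* peak 10.9 kb upstream had 44.9 reads in controls and 1.91 in mutants, at least 15.0-fold lower against a floor of 3 reads. The strongest *Egf* peak had 137 and 125 reads, a difference of −0.13. *Tgfa*, which encodes another EGFR ligand, had 1 peak with 14.9 and 11.4 reads.

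The sheddases that release EGF-type ligands from the membrane and their helpers (9 genes) had 34 peaks, of which 27 lay above 0, with a median of 0.52, 0 lower and 6 higher (17.6%, beside 4.57% of all peaks). The 6 were in *Adam9*, *Adam12* and *Adam19*, genes named here after their values were seen, and all had an overall mean under 20 reads. In the 3 lowest level classes, which hold peaks that weak, 16.3%, 10.5% and 7.39% of all peaks were 2-fold higher. Adaptors and the phosphatase SHP2 (9 genes, 43 peaks) had 4 lower (9.30%) and 1 higher (2.33%) with a median of 0.05. For *Grb2*, the adaptor that links receptors to RAS, a peak at 25.5 kb had 38.6 reads in controls and 5.70 in mutants, a difference of −2.76. The strongest *Grb2* peak had 1031 and 719 reads, a difference of −0.52. The RAS and MAPK genes (9 genes, 16 peaks) had 1 lower (6.25%) and 0 higher, and a median of 0.01.

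Negative regulators of the receptors (14 genes, 109 peaks) had 7 lower and 7 higher (6.42% each, beside 10.6% and 4.57%), with a median of 0.20. Peaks of *Lrig2*, *Lrig1* and *Cblb* were among the lower. *Lrig1* limits ERBB receptor levels, and its peak at 4.98 kb had 64.0 reads in controls and 15.7 in mutants, a difference of −2.03. The *Lrig2* peak at 122 kb had 48.8 and 4.76 reads, a difference of −3.36. For *Cblb*, a ubiquitin ligase, the peak at 63.7 kb had 134 and 55.3 reads, a difference of −1.28. *Spry4*, a feedback inhibitor of receptor kinase signalling, had a higher peak with 15.3 reads in controls and 44.9 in mutants, a difference of 1.55. At the strongest peak of each gene the difference was −0.42 for *Lrig1*, −0.53 for *Lrig2*, −0.09 for *Cblb* and 0.26 for *Spry4*. The PI3K, AKT and STAT genes (14 genes, 79 peaks) had 11 lower (13.9%) and 5 higher (6.33%), and a median of −0.02. *Akt2* encodes an AKT kinase of insulin and growth factor signalling. A peak over one of its curated starts (27603030 to 27611716) had 605 reads in controls and 177 in mutants, a difference of −1.77. The strongest *Akt2* peak (27590504 to 27598288) had 622 and 455 reads, a difference of −0.45. A *Stat5b* peak 1.5 kb upstream of its nearest curated start had 43.1 and 7.57 reads, a difference of −2.51. The strongest *Stat5b* peak (100848961 to 100851564) had 280 and 246 reads, a difference of −0.19. *Pik3r1*, a regulatory subunit of PI3K, had peaks in both directions, one with 60.5 and 23.8 reads (−1.35) and one with 11.5 and 30.3 (1.40). The strongest *Pik3r1* peak had 639 and 605 reads (−0.08).

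**Figure D4:**
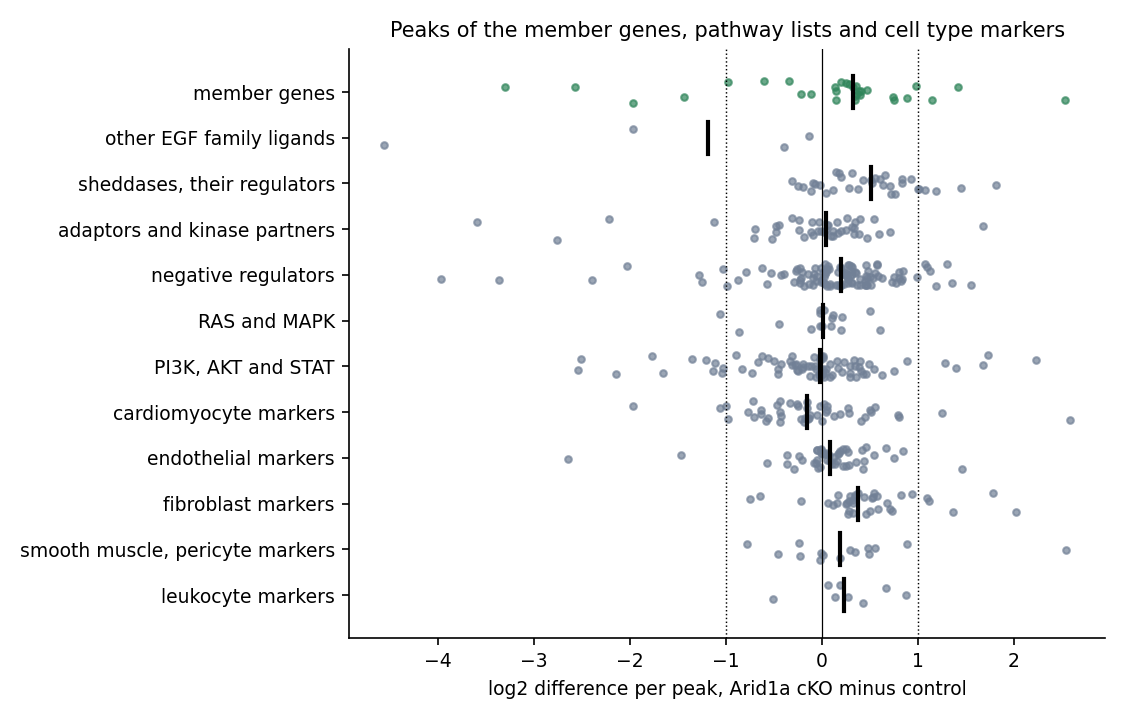
Difference (log2, *Arid1a cKO* minus control) of every peak of the family, of the pathway lists and of the cell type marker lists, with bars at the medians and dotted lines at 2-fold in either direction. The fibroblast markers have 34 of 37 peaks above 0 and a median of 0.38, near the 0.37 of the family without *Erbb4* and *Nrg1*.

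Marker genes were used to check the tissue label and were compared in the same way, since whole ventricles hold several cell types. Of the 8 cardiomyocyte markers 7 carried strong peaks in both groups, and *Actc1* had no peak. Examples are *Myh6*, with 3591 reads in controls and 3929 in mutants, and *Nkx2-5*, with 2150 and 1607. Of the liver and epithelial genes *Alb*, *Apoa2* and *Epcam* had no peak. Since *Actc1* had none either, the lack of a peak does not show that a cell type is absent. The 6 fibroblast markers (*Pdgfra*, *Tcf21*, *Col1a1*, *Col1a2*, *Dcn* and *Postn*) had 34 of 37 peaks above 0 and a median of 0.38. Of these peaks 0 were 2-fold lower and 5 higher (13.5%), beside 10.6% and 4.57% of all peaks. The summed signal of the fibroblast markers was 3259 reads in controls and 4383 in mutants, a difference of 0.43, close to the 0.50 of *Egfr*. Cardiomyocyte markers (7 of 8 genes with peaks, 47 peaks) had a median of −0.15, with 29 peaks below 0 and 17 above. Their summed signal differed by −0.14, compared to −0.77 for *Erbb4*. Endothelial markers (47 peaks) had a median of 0.09 and endocardial markers (6 peaks) one of 0.18. A list median is not the like of the −3.30 of the single *Nrg1* peak. Of the endothelial peaks 2 were 2-fold lower (4.26%) and 1 higher (2.13%), beside 10.6% and 4.57% of all peaks. The lowest, at *Cdh5*, had 136 reads in controls and 21.9 in mutants, a difference of −2.64. Smooth muscle and pericyte markers (15 peaks) had a median of 0.19, leukocyte markers (8 peaks) 0.23 and epicardial markers (7 peaks) −0.12. Schwann cell markers had 1 peak, at −0.01, and the liver and epithelial markers had 1, at *Cdh1*, at 0.19. The part of cell composition in the differences of the family was not tested.

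The targeted gene carried H3K27Ac in both groups. The *Arid1a* promoter peak had 1607 reads in controls and 1663 in mutants, a difference of 0.05. H3K27Ac at the promoter does not measure the deletion of the floxed exon, so this value is no check of the labels.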

How the data were processed

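H3K27Ac and input reads of P7 ventricles were mapped by the authors to mm10 (BWA 0.7.17-r1188). Peak calling used HOMER, with the pooled input reads as background. Regions seen in a single sample were dropped, and the authors ran DiffBind 2.12.0 with DESeq2 1.24.0 on the remaining peaks. The deposited table gives log2 concentrations per peak, which are the log2 mean of normalised reads, overall and per group. The authors' fold change, p-value and FDR columns were not used. Library scaling and input treatment are not given in the sources used here.

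Groups came from the labels. Of 45987 peaks, 7 on unplaced sequences were left out. Group concentrations were subtracted and turned back into reads. Starts came from 45756 curated RefSeq transcripts (GRCm38.p6), and sequences from the same assembly. The sequence of 1 further window is not reported here. A promoter peak covered a start or had its centre at most 1000 bp before or 100 bp after it. A group mean at or under 3 reads was a floor. No test was run. Python 3.11.15, numpy 2.4.6, pandas 2.3.3 and matplotlib 3.10.9 were used, and scripts were tested on simulated data. Members, lists and motifs were chosen with earlier results of these data known. Named peaks were, for each member, the promoter peak, the strongest peak and those at least 2-fold apart, and, for each pathway list, those of up to 3 genes in each direction with an overall mean of at least 20 reads. Other peaks were named after their values were seen. *Nrdc* was matched as *Nrd1*. Fold limits, centring, a pseudocount, the weakest peaks, the assignment to genes and the motif window were varied.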

Additional observations from a re-analysis of the deposited data

How the results depend on the processing

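No paired analysis was possible because the deposited table holds no values of single samples, and for the same reason no replicate could be left out and no interval could be given. The count of higher member peaks (3) was 7 at a 1.5-fold limit (12% of all peaks), 1 at a 3-fold limit (1.35%) and 1 with starts of any RefSeq transcript, predicted ones included, which left 10 member peaks. The count of lower member peaks (4 of 31) was 2 of 27 when only starts within 100 kb were used and 1 of 10 with any RefSeq start. The median over members (0.33) was 0.32 when centred on all peaks or on promoter peaks, 0.20 when peaks were given to both flanking starts within 1 Mb, 0.35 within 100 kb, 0.37 with any RefSeq start and 0.29 with a pseudocount of 5 reads. Flanking starts added an *Egfr* peak with 107 reads in controls and 33.8 in mutants (−1.66) and an *Erbb4* peak with 34.1 and 5.21 reads (−2.71). The higher *Egfr* peak at 71.5 kb was at 0.71, under the limit, with the pseudocount. Pathway peaks counted as higher (19 of 285) were 45 at 1.5-fold, beside 12% of all peaks, and 5 at 3-fold, beside 1.35%. They were 35 of 501 with flanking starts, 4 of 285 with the pseudocount and 2 of 202 without the weakest 25% of peaks. Those counted as lower (25 of 285) were 14 at 3-fold, beside 5.6% of all peaks, 43 of 501 with flanking starts and 14 of 202 without the weakest 25% of peaks. Among these settings, shares over all peaks were computed for the fold limits only. Smaller moves were 6 lower member peaks at 1.5-fold, beside 17.3% of all peaks, and 3 at 3-fold, beside 5.6% of all peaks. With flanking starts, of 43 member peaks 6 were lower and 4 higher. With the pseudocount 2 of 31 were higher, and without the weakest 25% 2 of 23. With any RefSeq start *Egfr* kept 1 peak, *Erbb4* 2, *Areg* 2, *Btc* 2, *Hbegf* 1 and *Nrg1* 0. Centring and the pseudocount could not probe the direction of the 7 peaks past 2-fold. Centring moved differences by 0.01, and the same reads added to both groups cannot reverse a sign. The causes of these changes were not tested.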
